A study of Homo sapiens with 4 samples.

Results

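The transcription factor ATF4, the genes it is best known to switch on, and the cytosolic tRNA synthetases were measured in HuCCT1 cells, a human intrahepatic cholangiocarcinoma line, 24 hours after EGF was added. The set held 40 genes chosen by name for these functions, out of 19483 genes that the arrays' probes could be matched to. All 40 had a probe (50 probes in all), and 36 of them were well above background on all 4 arrays, as were 13602 genes in all. Cells were transfected at 30 nM with Pre-miR-376c (a synthetic mimic of the mature microRNA miR-376c-3p), with siGRB2 (a small interfering RNA against the adaptor GRB2), or with 1 of 2 negative controls, a Pre-miR negative control and a nonspecific siRNA negative control. After 24 hours they were moved to medium with 0.1% serum and 5 ng/ml EGF. Every group therefore shared the cell line, the lipid reagent, the low serum and the EGF, and no array of cells without EGF or without transfection was analysed here. Each group was 1 array, so the comparisons have no replicate check and carry no p-value, and differences between arrays cover biology and technique together.

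ATF4 is the main effector of the integrated stress response. When amino acids run short, the endoplasmic reticulum is overloaded, haem is lacking or double-stranded RNA is sensed, kinases phosphorylate the translation factor eIF2, general protein synthesis slows, and the ATF4 message is translated more. ATF4 then pairs with C/EBP factors at short DNA elements and raises the genes for amino acid synthesis, amino acid uptake and the charging of tRNAs, while its partner DDIT3 and its brake TRIB3 shape what follows. A tRNA synthetase joins an amino acid to its tRNA, the step that feeds the ribosome.

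The C/EBP-ATF response element carries the core letters TGATGNAA, which read TTNCATCA from the other strand. In windows from 250 bases before to 50 bases after each annotated start (RefSeq, GRCh38.p14), the core was found in 14 of the 33 members that had a window (42.4%) and in 1217 of 27305 genes in all (4.46%). Those of 6 members are shown, since these genes include ones that read highest or lowest on the siRNA negative control array, as described below. Each is 30 bases, read 5′ to 3′ on the gene's own strand, with the core in capitals.

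SLC1A5 (chr19:46784893-46784922, minus strand, core starting 97 bases before the start): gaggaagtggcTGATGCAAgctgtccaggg
SLC3A2 (chr11:62881719-62881748, plus strand, core starting at base 38 after the start): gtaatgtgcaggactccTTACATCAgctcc
CARS1 (chr11:3057407-3057436, minus strand, core starting 2 bases before the start): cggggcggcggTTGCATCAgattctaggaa
ASNS (chr7:97872458-97872487, minus strand, core starting 68 bases before the start): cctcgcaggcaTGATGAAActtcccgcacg
CEBPG (chr19:33374060-33374089, plus strand, core starting 42 bases before the start): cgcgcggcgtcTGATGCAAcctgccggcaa
TARS1 (chr5:33440956-33440985, plus strand, core starting at base 3 after the start): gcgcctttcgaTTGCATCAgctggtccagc

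For reference, the mature microRNA that Pre-miR-376c mimics (chr14:101039732-101039752, plus strand, 21 bases, RefSeq) is shown with its seed, bases 2 to 8, in capitals.

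hsa-miR-376c-3p: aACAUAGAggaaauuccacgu

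The other windows with the core belonged to ATF3, CHAC1, SLC1A4, AARS1, GARS1, IARS1, MARS1 and NARS1. Among the synthetases of the set 7 of the 10 genes with a window held it (15 windows in all), whereas it was found for 0 of 9 other cytosolic synthetases and complex subunits and 1 of 14 mitochondrial ones. Of the further ATF4 targets compared below, 5 of 15 genes held it (33.3%). Counted by window, the core was in 25.5% of the members' windows, 31.8% of those of the further targets and 3.62% of all windows. A match describes these letters only, and was not read as a bound site.

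**Figure D1:**
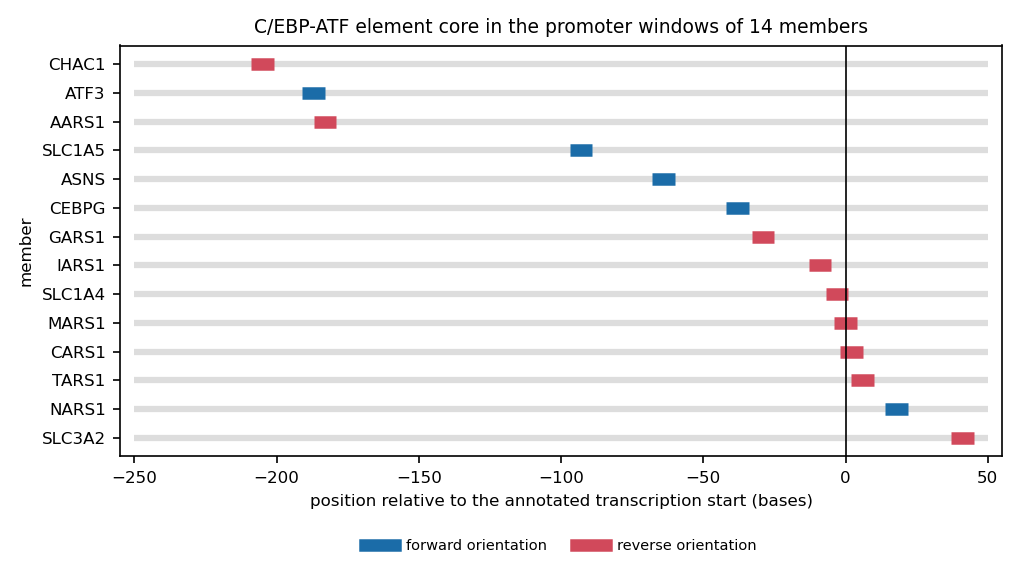
The x axis gives the position in bases relative to the annotated start, each grey line is the window searched for a member, and each coloured block is the 8-letter core, blue for TGATGNAA and red for TTNCATCA. The cores lay from 209 bases before to 38 bases after the start, and 9 of the 14 lay within 50 bases of it.

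Signals are given as levels, that is log2 of the scanner's processed signal minus the 75th percentile of the array's spots, so that 0 is the 75th percentile and a difference of 1 is a doubling. Levels are compared between arrays for 1 gene, never between genes, because probes differ in how well they bind. The scanner software's own error for a difference between 2 arrays was 0.20 to 0.28 for the members, with a median of 0.20. It comes from the software's error model and was nearly constant, at 0.144 on a single array for most members. The spread between repeated spots of a probe was smaller, with a median SD of 0.05 on each array. Neither covers differences between separate transfections. GRB2, the targeted gene, stood at -0.65 on the siGRB2 array, -0.10 on the siRNA control array, 0.07 on the Pre-miR-376c array and 0.62 on the Pre-miR control array, so it was lowest on the array labelled siGRB2, 1.47-fold below the siRNA control and 2.42-fold below the Pre-miR control. With Pre-miR-376c, GRB2 was 1.46-fold below the Pre-miR negative control and 1.13-fold above the siRNA one. All 6 biliary epithelial markers were well above background on every array, as were 3 of 5 hepatocyte, 1 of 4 fibroblast, 2 or 3 of 3 endothelial and 2 to 4 of 4 leukocyte markers. A marker counted if any of its probes passed. On every array KRT7, KRT19, EPCAM, KRT8 and KRT18 lay above the 75th percentile, and SOX9 below it. Of the non-biliary markers measured on all arrays, SERPINA1 lay above it, and APOA1, CPS1, COL1A1, VWF, CDH5, PTPRC and CD14 below it. These are places among an array's signals and give no amounts.

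The 2 negative control arrays did not agree on these genes. Over the 36 measured members the SD of the log2 differences was 0.62 between siRNA and Pre-miR negative control, while against the Pre-miR control it was 0.24 for siGRB2 and 0.26 for Pre-miR-376c. The same held for all 13602 genes, with SDs of 0.53, 0.30 and 0.34. The siRNA negative control array therefore stood apart from the other 3, and each treatment is set against both controls below. In bulk RNA, fewer cells carrying a message and less of it per cell cannot be told apart.

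Against Pre-miR negative control, both treatments had slightly more of most members. With Pre-miR-376c, 30 of 36 members lay above the median difference of all genes (as do 50% of all genes by definition), and the members' median log2 difference was 0.26 against -0.02 for all genes. With siGRB2, 27 of 36 lay above it, with medians of 0.17 and 0.03. These 2 comparisons share their control array. The siRNA negative control array, set against the same Pre-miR control, had 23 of 36 members above the all-gene median, with medians of 0.04 and -0.08.

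Against siRNA negative control about as many members lay above the all-gene median as below it. With siGRB2, 18 of 36 lay above the all-gene median and the members' median equalled that of all genes (0.11 and 0.11). With Pre-miR-376c, 19 of 36 lay above it, with medians of 0.22 and 0.06. The members instead spread widely in both directions, as did all genes. The SDs were 0.61 for members and 0.55 for all genes with siGRB2, and 0.59 and 0.50 with Pre-miR-376c. At least 1.5-fold apart from the siRNA control were 15 members with siGRB2 (8 higher and 7 lower, against 28.5% of all genes, 17.6% higher and 10.9% lower) and 16 with Pre-miR-376c (11 higher and 5 lower, against 22.1%, 11.4% higher and 10.7% lower). These splits depended on the scaling: with each array shifted to its median in place of its 75th percentile, siGRB2 had 3 higher and 11 lower, and Pre-miR-376c had 6 higher and 5 lower. All genes moved with that shift. With siGRB2, 37.6% of all genes were then higher than in the siRNA control, in place of 58.6%. With Pre-miR-376c it was 41.5%, in place of 55.2%. The shares of all genes at 1.5-fold under this shift were not computed.

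**Figure D2:**
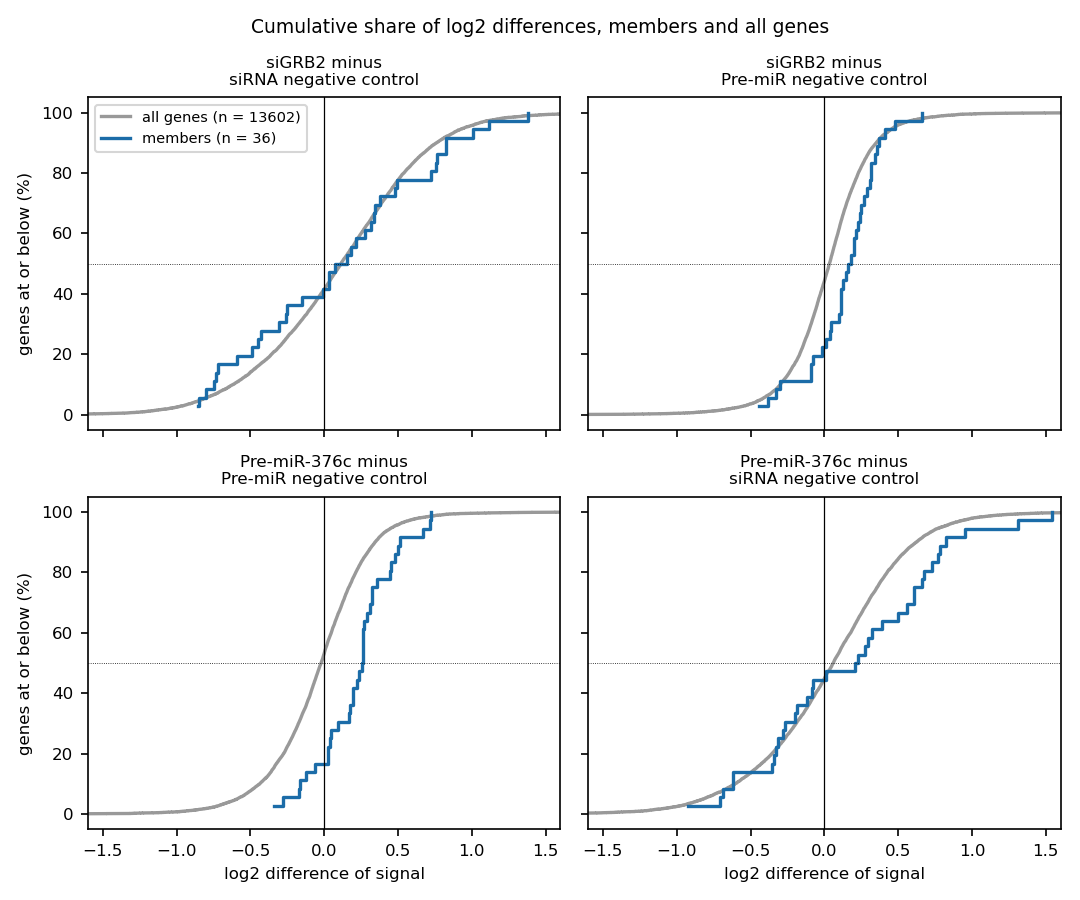
Each panel gives 1 comparison, with the log2 difference of signal on the x axis and the share of genes at or below it on the y axis, for the 36 measured members (blue) and all 13602 measured genes (grey). The blue curve lies to the right of the grey one over most of its length against Pre-miR negative control. Against siRNA negative control both curves are wide, with SDs of 0.61 and 0.59 for the members and 0.55 and 0.50 for all genes.

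Few members passed larger limits. At least 2-fold from siRNA negative control were 3 members with siGRB2 (SLC3A2, SLC1A5 and CARS1, all higher, against 6.74% of all genes) and 2 with Pre-miR-376c (SLC3A2 and SLC1A5, against 4.57%). With the median shift, siGRB2 had 1 member higher and 6 lower (8.8% of all genes in either direction), and Pre-miR-376c had 2 higher and 1 lower (5.72%). Against Pre-miR negative control, 0 members passed the 2-fold limit with either treatment (0.934% of all genes with siGRB2 and 1.14% with Pre-miR-376c). Between the 2 negative controls, 3 members passed it (5.7% of all genes): TRIB3 was higher with the siRNA control, and SLC3A2 and SLC1A5 were lower. With the median shift this became 5 higher and 0 lower (7.91% of all genes in either direction). At 1.5-fold, 15 members lay apart between the controls (25.0% of all genes), 8 of them higher with the siRNA control (10.4%) and 7 lower (14.7%). With the median shift 15 were higher and 3 lower. All genes moved as well: 65.5% of them were then higher with the siRNA than with the Pre-miR control, in place of 44.0%. Their share at 1.5-fold under this shift was not computed.

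Asked to stand at least 1.5-fold from both negative controls in the same direction, 0 of the 36 measured members passed with siGRB2 (1.26% of all genes were higher and 0.934% lower) and 1 passed with Pre-miR-376c, DDIT3, which was higher (0.809% of all genes), while 0 were lower (1.59%). Without a limit on size, 16 members with siGRB2 and 17 with Pre-miR-376c were higher than both controls, against 38.3% and 29.3% of all genes. Lower than both were MTHFD2, SLC38A2 and LARS1 with siGRB2 (23.9% of all genes) and SLC38A2, LARS1 and WARS1 with Pre-miR-376c (27.2%).

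**Figure D3:**
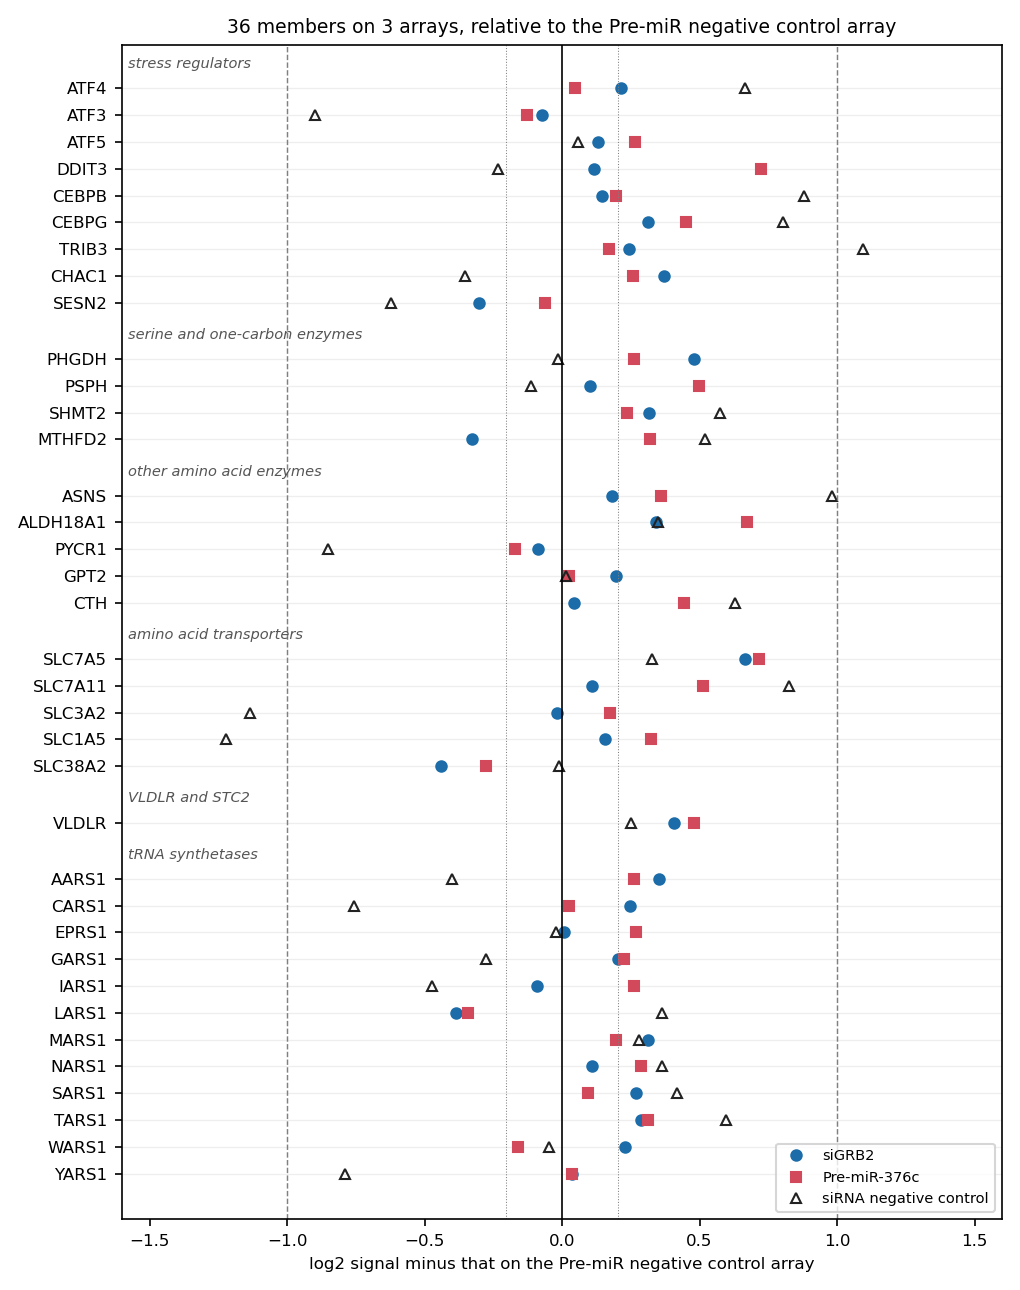
Each row is a member, grouped by role, and the x axis is its log2 signal minus that on the Pre-miR negative control array, with siGRB2 as circles, Pre-miR-376c as squares and siRNA negative control as open triangles. Dashed lines mark 2-fold and dotted lines the usual scanner error of 0.20. The triangles reach from -1.22 to 1.09, while circles and squares stay between -0.44 and 0.72.

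Among the 9 stress regulators, ATF4 itself stood at 6.02 after siGRB2, 5.85 after Pre-miR-376c, 6.47 in the siRNA control and 5.8 in the Pre-miR control. The 2 treatments and the Pre-miR control lay within 0.21 of each other, about the scanner error, and the siRNA control lay highest, 1.59-fold above the Pre-miR control. ATF4 is regulated chiefly through the translation of its message, which an array of RNA does not measure.

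DDIT3, the stress-induced factor also called CHOP that lies downstream of ATF4, stood at 0.17 after Pre-miR-376c, -0.44 after siGRB2, -0.55 in the Pre-miR control and -0.79 in the siRNA control. Pre-miR-376c was thus the highest array, 1.65-fold above the Pre-miR control and 1.94-fold above the siRNA control. With siGRB2 the folds were 1.08 and 1.27.

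TRIB3, a pseudokinase that restrains ATF4, and CEBPB, a C/EBP factor that pairs with it, stood out on the siRNA negative control array. TRIB3 read 6.29 there, 5.44 after siGRB2, 5.37 after Pre-miR-376c and 5.2 in the Pre-miR control. CEBPB, averaged over 10 spots, read 2.54 there and 1.81, 1.86 and 1.66 on the other arrays in that order. The 3 other arrays ranged over only 0.24 for TRIB3 and 0.20 for CEBPB, and the siRNA control was at least 1.5-fold above all of them. CEBPG, which also dimerises with ATF4, was also highest on the siRNA control, at 0.47, with 0.12 after Pre-miR-376c, -0.02 after siGRB2 and -0.33 in the Pre-miR control.

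The remaining regulators differed from the Pre-miR control by at most 1.29-fold with either treatment, the largest fold being that of CHAC1 with siGRB2. ATF5, an ATF4-related factor, lay between -1.76 and -1.50 on the 4 arrays. SESN2, a leucine sensor that restrains mTORC1, lay between -2.57 with the siRNA control and -1.95 with the Pre-miR control. ATF3, a stress-induced repressor and activator, and CHAC1, which degrades glutathione, were lowest on the siRNA control array as means of their probes (-2.21 and -3.21). Probes of each disagreed in sign between the 2 controls, as described below. CHAC1 stood at -2.48 after siGRB2, -2.60 after Pre-miR-376c and -2.85 in the Pre-miR control. Its 2 probes were both higher with each treatment than with either control.

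The serine and one-carbon enzymes make serine and pass its carbon to folate. With Pre-miR-376c all 4 measured ones lay above the all-gene median against the Pre-miR control, at log2 differences of 0.23 (SHMT2, which splits serine in mitochondria) to 0.50 (PSPH, which makes serine from phosphoserine). PHGDH, which opens serine synthesis, was highest with siGRB2, at 0.66 against 0.44 with Pre-miR-376c and 0.17 and 0.18 with the siRNA and Pre-miR controls. MTHFD2, a mitochondrial folate enzyme read by 10 spots, was the measured member where the treatments lay farthest apart: 1.69 after siGRB2, 2.34 after Pre-miR-376c, 2.02 in the Pre-miR control and 2.54 in the siRNA control, so siGRB2 was the lowest array. Its 10 spots varied by an SD of at most 0.11 on any array.

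ASNS, which makes asparagine and is a textbook ATF4 target, stood at 3.62 in the siRNA control, 3.0 after Pre-miR-376c, 2.82 after siGRB2 and 2.64 in the Pre-miR control. The siRNA control was again the highest array, 1.97-fold above the Pre-miR control and 1.74-fold above siGRB2. Its core element is among the sequences printed above. Against the Pre-miR control, siGRB2 was 1.13-fold and Pre-miR-376c 1.28-fold higher.

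ALDH18A1, which opens proline synthesis from glutamate, was highest with Pre-miR-376c, at 1.03 against 0.70 after siGRB2, 0.71 in the siRNA control and 0.36 in the Pre-miR control. That was 1.59-fold above the Pre-miR control and 1.25-fold above the siRNA control. PYCR1, the last enzyme of the same path, stood at -0.50, -0.41, -1.17 and -0.32 on those arrays, as the mean of 2 probes with opposite readings. GPT2, which makes alanine, lay between -0.53 and -0.33 on all 4 arrays. CTH, which makes cysteine from cystathionine, was highest with the siRNA control at -0.41, followed by -0.60 after Pre-miR-376c, -1.0 after siGRB2 and -1.04 in the Pre-miR control.

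The amino acid transporters held the largest fold of the 36 measured members. SLC1A5, a carrier of glutamine, stood at -1.40 in the siRNA control, -0.18 in the Pre-miR control, -0.02 after siGRB2 and 0.14 after Pre-miR-376c. The siRNA control was 2.33-fold below the Pre-miR control, 2.60-fold below siGRB2 and 2.92-fold below Pre-miR-376c, while the other 3 arrays lay within 0.32 of each other. Against the Pre-miR control, SLC1A5 was 1.12-fold higher with siGRB2 and 1.25-fold higher with Pre-miR-376c.

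SLC3A2, the heavy chain that brings the SLC7 carriers to the cell surface, was likewise lowest in the siRNA control. It stood at -0.55 in the siRNA control, 0.59 in the Pre-miR control, 0.57 after siGRB2 and 0.76 after Pre-miR-376c. Against the siRNA control siGRB2 was 2.17-fold higher, and against the Pre-miR control the log2 difference was -0.02.

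The light chains that pair with SLC3A2 did not share its pattern. SLC7A11, the cystine carrier, was highest with siRNA negative control at -0.55, followed by -0.86 after Pre-miR-376c, -1.26 after siGRB2 and -1.38 in the Pre-miR control. SLC7A5, the carrier of leucine and other large amino acids, was lowest with the Pre-miR control at -1.24, followed by -0.91 with the siRNA control, -0.57 after siGRB2 and -0.52 after Pre-miR-376c. Of the 36 measured members it was the only one at least 1.5-fold from the Pre-miR control with both treatments, 1.58-fold with siGRB2 (5.1% of all genes passed in either direction) and 1.64-fold with Pre-miR-376c (7.8%), and against the siRNA control the folds were 1.26 and 1.31.

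SLC38A2, which takes up small neutral amino acids, went the other way. It stood at 2.32 after siGRB2, 2.48 after Pre-miR-376c, 2.75 in the siRNA control and 2.76 in the Pre-miR control. Both treatments were thus lower than both controls, by 1.20-fold to 1.36-fold, and each of its 2 probes gave the same sign in all 4 of these comparisons. VLDLR, a lipoprotein receptor known as an ATF4 target, lay between -1.89 with the Pre-miR control and -1.41 with Pre-miR-376c.

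The 12 tRNA synthetases of the set had a median log2 difference from the Pre-miR control of 0.22 after siGRB2 and 0.21 after Pre-miR-376c. None was 1.5-fold apart from the Pre-miR control (5.1% of all genes were with siGRB2 and 7.8% with Pre-miR-376c). Against siRNA negative control the synthetases split. CARS1, the cysteinyl synthetase, stood at -0.63 after siGRB2, -0.85 after Pre-miR-376c, -0.88 in the Pre-miR control and -1.63 in the siRNA control, so siGRB2 was 2.01-fold above the siRNA control and 1.19-fold above the Pre-miR control. YARS1, for tyrosine, was likewise lowest on the siRNA control, with -1.35 there and -0.53, -0.53 and -0.57 on the other arrays. AARS1, for alanine, read -1.63 on the siRNA control against -1.23 in the Pre-miR control, -0.87 after siGRB2 and -0.96 after Pre-miR-376c.

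LARS1, for leucine, had the reverse order: 0.87 in the siRNA control, 0.51 in the Pre-miR control, 0.17 after Pre-miR-376c and 0.12 after siGRB2. It was lower than both controls with each treatment, by 1.27-fold to 1.68-fold. TARS1, for threonine, was highest with the siRNA control at 3.91 and lowest with the Pre-miR control at 3.31. Among the others, GARS1 (glycine) and IARS1 (isoleucine) were lowest on the siRNA control at 0.50 and -0.18, and NARS1 (asparagine) and SARS1 (serine) highest there at 2.11 and 3.63. EPRS1 (glutamate and proline) lay between 3.49 and 3.78, WARS1 (tryptophan) between 0.49 and 0.88, and MARS1 (methionine) between -0.48 and -0.17 as the mean of 2 probes that disagreed.

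Counted over the whole set, siRNA negative control was the highest of the 4 arrays for 13 members and the lowest for 15, against 31.1% and 43.3% of all genes. It was at least 1.5-fold above all 3 other arrays for CEBPB, TRIB3 and ASNS (5.48% of all genes) and at least 1.5-fold below them for ATF3, PYCR1, SLC3A2, SLC1A5, CARS1 and YARS1 (6.78%). With the median shift it was highest for 17 members and lowest for 11, and these 1.5-fold counts of 3 above and 6 below became 5 and 2. With quantile normalization these 1.5-fold counts were 1 and 6, and with the brightest probe of a gene 4 and 4. The dimmer of the 2 PYCR1 probes read -6.10 on the siRNA control, near the lowest level well above background there (-6.32), and the brighter was highest there. With the median shift 65.5% of all genes were higher with the siRNA than with the Pre-miR control. The shares of all genes for the counts under these settings were not computed. The direction followed signal strength over all genes: of those with a mean level above the 75th percentile 57.3% were higher with the siRNA control than with the Pre-miR control, and of the dimmer ones 36.1% were. For the members these counts were 12 of 20 and 7 of 16. The part of signal strength in the members' differences was not tested.

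Leaving the siRNA control aside, the 3 remaining arrays spanned at least 1.5-fold for 4 of the 36 members, DDIT3, MTHFD2, ALDH18A1 and SLC7A5 (13.0% of all genes).

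There were 6 members with 2 or more measured probes, and the widest spread between probes of a gene was in the siRNA negative control against the Pre-miR control, in 4 of the 6 (ATF3, CHAC1, PYCR1 and MARS1). The brighter PYCR1 probe was 0.49 higher on the siRNA than on the Pre-miR control and the dimmer had a log2 difference of -2.19. The brighter MARS1 probe was 1.30 higher and the dimmer had a difference of -0.73, which the mean of 0.28 hides. For CHAC1 the same differences were 0.21 for the brighter and -0.91 for the dimmer probe.

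The 4 ATF3 probes ran from -2.08 to 0.05 in that comparison. The 3 IARS1 probes all had the siRNA control lower, from -0.78 to -0.23, and the SLC38A2 probes read -0.21 and 0.19. For these last 2 genes the probes lay farther apart with Pre-miR-376c against the Pre-miR control, at -0.21 to 0.65 for IARS1 and -0.49 and -0.06 for SLC38A2. Against the Pre-miR control, probes of these genes spanned at most 0.59 with siGRB2 and 0.86 with Pre-miR-376c. Where probes take opposite signs, the gene's mean gives no direction for the message as a whole.

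**Figure D4:**
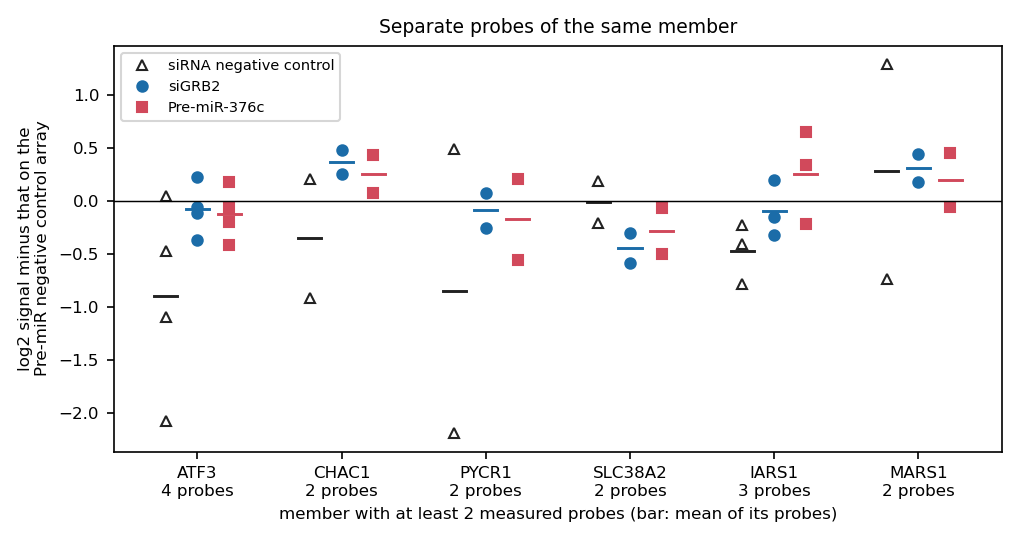
Each symbol is 1 probe of a member with at least 2 measured probes, the y axis is its log2 signal minus that on the Pre-miR negative control array, and the short bars are the means used for the gene. Probes of ATF3, CHAC1, PYCR1, SLC38A2 and MARS1 lie on both sides of 0 for siRNA negative control (open triangles), at -2.19 and 0.49 for PYCR1.

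The other 4 members were not measured on all arrays. PSAT1, the middle enzyme of serine synthesis, and STC2, a secreted glycoprotein, were not well above background on any array, so no fold is given for them. CBS, which makes cystathionine, stood at -4.93 after siGRB2, -5.77 after Pre-miR-376c and -6.55 in the Pre-miR control, and was not well above background with siRNA negative control. That made siGRB2 3.07-fold and Pre-miR-376c 1.73-fold higher than the Pre-miR control, and at least 2.61-fold and at least 1.47-fold higher than the siRNA control.

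SLC1A4, which carries alanine, serine and cysteine, stood at -4.33 after Pre-miR-376c, -6.28 after siGRB2 and -6.04 in the Pre-miR control, and was also not well above background with siRNA negative control. Pre-miR-376c was 3.27-fold above the Pre-miR control and at least 3.98-fold above the siRNA control, and siGRB2 was 1.19-fold below the Pre-miR control. Both genes were dim and were read by 1 spot per array.

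Other genes of the same pathway were compared by lists. Of 21 further ATF4 targets 17 were measured, and their median log2 difference from the Pre-miR control was 0.30 after siGRB2 and 0.28 after Pre-miR-376c. In this list 2 genes were at least 1.5-fold higher than both controls with each treatment (1.26% of all genes with siGRB2 and 0.809% with Pre-miR-376c), and the treatments share these controls. GDF15 and KLHL24 were at least 1.5-fold lower with Pre-miR-376c than in the Pre-miR control, at log2 differences of -0.59 and -0.69 (5.12% of all genes). In the same comparison 3 genes of the list were at least 1.5-fold higher, NUPR1, SLC6A9 and XPOT (2.68%), with XPOT at 0.83. NUPR1, a stress-induced chromatin protein, stood at -3.02 after siGRB2, -3.13 after Pre-miR-376c, -3.81 in the siRNA control and -4.13 in the Pre-miR control. SLC6A9, the glycine transporter GlyT1, stood at -0.14, -0.10, -0.99 and -0.94 in the same order, so for this gene the 2 negative controls differed by a log2 of -0.05, with each treatment 1.75-fold to 1.85-fold above them.

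For the eIF2 kinases and the subunits of eIF2, eIF2B and the eIF2 phosphatases (16 of 17 measured) the medians against the Pre-miR control were 0.07 after siGRB2 and 0.04 after Pre-miR-376c. EIF2S1, the subunit of eIF2 that is phosphorylated, was lowest in the Pre-miR control at -0.29, against 0.39 after siGRB2, 0.50 after Pre-miR-376c and 0.95 in the siRNA control. GCN1, a partner of the amino acid sensing kinase GCN2, was highest on the siRNA control, at 4.27 against at most 3.23 elsewhere. GCN2 itself (EIF2AK4) was lowest there, at 0.64 against 1.24 to 1.53 elsewhere. Between the controls, 2 genes of this list were at least 1.5-fold higher with the siRNA control, GCN1 and EIF2S1 (10.4% of all genes). Another 2 were lower, EIF2AK4 and PPP1R15A (14.7%).

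The 11 other cytosolic synthetases and complex subunits had medians of 0.03 after siGRB2 and 0.27 after Pre-miR-376c, and the 16 measured mitochondrial synthetases (of 17) had 0.07 and 0.07. With siGRB2, 9 of the 12 member synthetases lay above the all-gene median against the Pre-miR control, as did 5 of the 11 other cytosolic and 9 of the 16 mitochondrial ones. With Pre-miR-376c these counts were 10, 8 and 12. The lists were not tested against each other.

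Split by the element printed above, the members looked alike against the Pre-miR control. The 13 measured members with the core had a median log2 difference of 0.20 after siGRB2 and 0.26 after Pre-miR-376c, and the 16 with a window and no core had 0.18 and 0.26. Between the 2 negative controls, 5 of the 13 with the core and 10 of the 16 without it were higher on the siRNA control array (44.0% of all genes), with medians of -0.35 and 0.29. With the median shift, which moved this comparison by 0.27 for all genes, the counts were 5 and 15 (65.5% of all genes). The members with the core ranged from SLC1A5 at -1.22 to ASNS at 0.98 in that comparison. Among these 13 were ATF3, CHAC1 and MARS1, and among the 16 was SLC38A2, whose probes took opposite signs between the controls. The median of -0.35 is itself the mean of the 2 CHAC1 probes, so these splits give no firm direction.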

How the data were processed

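Total RNA of 4 transfections of HuCCT1 cells was labelled with Cy3 and hybridised to Agilent human 4×44K v2 arrays, 1 array per group. The authors deposited spot intensity values from Agilent Feature Extraction (10.7.3.1 in the file headers), already corrected for background, and a table of log2 values per probe, shifted to the 75th percentile by the authors. The table equalled the scanner values minus a constant within 0.01 for 99.45% to 99.54% of probes.

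Levels were computed from 43118 non-control spots per array in Python (3.11.15; numpy 2.4.6, pandas 2.3.3): log2 minus the 75th percentile, outlier-flagged spots (289 to 329) left out, spots of a probe averaged, probes well above background on all 4 arrays kept, probes of a gene averaged. No spot was saturated. An undetected side was set to the lowest signal well above background for a bound ("at least"). Accessions gave a gene for 25422 of 34127 probes (RefSeq, GRCh38.p14). Quantile and normexp alternatives used R (4.3.3) and limma (3.58.1). All arrays shared 1 slide and 1 scan. The number of arrays limits the precision, and no test between conditions was made. Calculations were tested on simulated data.

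Groups came from the transfection labels. The members, the other gene lists and the limits of 2-fold and 1.5-fold were chosen with earlier results of these data known. Levels on all 4 arrays were set for ATF4, DDIT3, ASNS, members at least 2-fold from a negative control with a treatment, and genes of any list at least 1.5-fold from both. Levels of other genes were picked after their values were seen.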

Additional observations from a re-analysis of the deposited data

How the results depend on the processing

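No paired analysis was possible because each group held 1 array, and for that reason no array could be left out. No slide or scan block was run, since all arrays shared 1 of each. The members above the all-gene median numbered 29 to 32 of those measured for Pre-miR-376c and 24 to 28 for siGRB2 against Pre-miR negative control over the scalings, filters and probe rules tried, and 18 to 23 and 17 to 22 against siRNA negative control. Between 36 and 40 members were measured, depending on the filter. A shift of a whole array cannot change these counts, so the median shift left them as they were and does not test them. The median shift moved the median of all genes by -0.28 for siGRB2 against siRNA negative control, -0.16 and 0.11 for Pre-miR-376c against the siRNA and Pre-miR controls and 0.27 between the controls, quantile normalization by -0.11 in the first of these and normexp by 0.12 between the controls.

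Counts of members at least 2-fold apart moved as follows. With a 1.5-fold limit they became, against siRNA negative control, 15 for siGRB2 and 16 for Pre-miR-376c, 1 and 3 against Pre-miR negative control and 15 between the controls, and with a 3-fold limit 0 in all of these. With the median shift, siGRB2 against siRNA negative control had 7 (8.8% of all genes) and the controls had 5 (7.91%). With no filter on dim probes, siGRB2 and Pre-miR-376c had 5 and 4 against the siRNA control (9.3% and 6.73% of all genes). Against the Pre-miR control they then had 1 each (4.78% and 4.44%). Probes above background on at least 1 array also gave 1 each against the Pre-miR control (3.92% and 4.2%). Against the other negative control siGRB2 had 0 and Pre-miR-376c had 2, and against the mean of both siGRB2 had 0. Members at least 1.5-fold higher than both controls became 1 for siGRB2 and 2 for Pre-miR-376c with no filter or with 1 detected array, and 2 for Pre-miR-376c with the median of a gene's probes.

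The members' median minus the all-gene median was 0.28 for Pre-miR-376c against its Pre-miR control and 0.16 against the siRNA control, and for siGRB2 it was 0.0004 against its siRNA control and 0.135 against the Pre-miR control. With no filter it was, against the siRNA control, 0.16 for siGRB2 and 0.28 for Pre-miR-376c and -0.016 between the controls, and with the brightest probe 0.0765 for Pre-miR-376c against the siRNA control and 0.26 between the controls. Of 1944 values of single members under the alternatives, 1747 stayed within the scanner error, 196 moved and 1 that was at least 2-fold apart changed sign: SLC3A2 with siGRB2 was -0.0189 against the other negative control. Most members had 1 probe, so the filters and probe rules could not change their values. With the median shift 70 values moved and 110 stayed. With the other negative control 57 moved, 1 changed sign and 14 stayed. Of the 36 members at any size, 17 with siGRB2 and 16 with Pre-miR-376c had opposite signs against the 2 negative controls, 6 and 5 of them beyond the scanner error on both sides (ATF4, CEBPG, TRIB3, SESN2, SHMT2 and TARS1 with siGRB2, and CEBPG, SHMT2, ASNS, SLC7A11 and TARS1 with Pre-miR-376c). Of all genes, 23.9% were lower and 38.3% higher than both controls with siGRB2, and the rest had opposite signs. With Pre-miR-376c these shares were 27.2% and 29.3%. The share of all genes with opposite signs beyond the error was not computed. The cause of the moves and sign changes was not tested. Members near background (CBS, SLC1A4, PSAT1 and STC2) limit what these arrays show.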
